A study of Mus musculus with 192 samples.

Results

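The 10 heat shock chaperone genes described here were followed through 96 wells of a chip loaded with mouse embryonic stem (ES) cells. Whether each well held 1 cell was not checked. The genes were Hsp90aa1, Hsp90ab1, Hspa8, Hspa4, Hsph1, Dnaja1, Dnajb1, Hspb1, Hspd1 and Hspe1. They were chosen by name, as 10 of the 24264 genes in the deposited table of molecule counts, and all 10 were found there. Together they made up 1.32% of all gene molecules, and 69.6% of their molecules came from the pair Hsp90aa1 and Hsp90ab1. The set is labelled cytosolic, but the products of Hspd1 and Hspe1, Hsp60 and Hsp10, work in the mitochondrial matrix, so the label holds for the other 8 genes.

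Chaperones bind proteins that are not yet folded, or have lost their fold, and keep them from aggregating. In the cytosol, Hsp70 proteins take up new and damaged chains with the help of J proteins, which deliver the substrate and start ATP hydrolysis, and of Hsp110 proteins, which exchange the nucleotide, and some clients then pass to Hsp90 for the last steps of folding. The Hsf1 transcription factor raises many of these genes after heat or other stress, while Hsp90ab1 and Hspa8 are known as members that most cells express without stress.

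The cells were of R1, a mouse ES cell line, grown in ES1 medium on irradiated mouse embryonic fibroblasts (feeders). Feeders were allowed to settle out, dead and early apoptotic cells were removed with annexin V beads, and the suspension was frozen in DMSO until it was thawed and loaded on 1 microfluidic chip. RNA was reverse transcribed in the chamber together with synthetic spike-in RNAs, amplified by 21 PCR cycles, and sequenced as such and again after 9 further cycles. The table gives 1 column per well for both forms of the library together, so the further cycles were not analysed here, and all wells come from 1 culture, which is 1 sample: every spread below is between wells, no p-value or standard error was made from wells, and counting intervals do not cover differences between cultures.

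The wells are described in 2 ranges set by the number of gene molecules per well alone, not divided by spike-in molecules. The 45 low-RNA wells held at most 40000 gene molecules, from 8774 to 35543 with a median of 22234. The 51 RNA-rich wells held at least 50000, from 51390 to 573648 with a median of 98750, and 0 wells lay between. The ranges also differed in the share of mitochondrially encoded molecules, with a median of 29.1% in low-RNA wells and 10.4% in RNA-rich wells, and in gene molecules per spike-in molecule, with medians of 3.64 and 12.3. A level below is the number of molecules per 10000 gene molecules of the well. The summed level of 13 ES cell markers had a median of 54.9 in low-RNA wells (40.5 to 144) and 92.3 in RNA-rich wells (19.3 to 234), with no marker at 0 in every well. The summed level of 12 feeder markers ran from 6.07 to 19.4 in low-RNA wells, where Col3a1 and Thy1 were at 0 throughout, and from 4.82 to 189 in RNA-rich wells. The summed level of 8 trophectoderm and simple epithelium markers ran from 0.612 to 16.2 in low-RNA wells and from 1.945 to 74.8 in RNA-rich wells. Of 7 primitive endoderm markers, 3 (Gata4, Sox17 and Sox7) were at 0 in every low-RNA well and 2 (Sox17 and Sox7) in every RNA-rich well. Low-RNA well H12 held 926 spike-in molecules, against a low-RNA median of 6098, and RNA-rich wells C03 and H03 held 36465 and 55740, against an RNA-rich median of 7992. Per spike-in molecule, well H12 held 17.6 gene molecules, against 5.30 in the next highest low-RNA well and the RNA-rich median of 12.3. Well H12 also stood apart from the other 44 low-RNA wells in its mitochondrial share of 7.58%, against 20.6% in the next lowest, in its summed ES cell level of 144, against 85.4 in the next highest, and in its ribosomal protein genes (1584 against 1021), and it set the highest low-RNA levels of Dnaja1 (9.80, next 9.12) and Hspb1 (3.06, next 3.04).

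How far each gene can be told from its copies differs among the 10. Reads that matched the genome in several places were counted at their most 5' exonic match, and unique reads gave 100% of the molecules of Hspa4, Hsph1 and Dnajb1, 94.7% of Hsp90ab1, 81.9% of Hspe1, 77.6% of Dnaja1 and 52.4% of Hspd1. They gave 13.6% of the molecules of Hspb1, 10.3% of Hsp90aa1 and 4.99% of Hspa8, against 73.3% over all gene molecules, so the values of these 3 genes are uncertain. Unique reads are given as totals over all wells, and the share could not be computed for each range.

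The 5' flanks of some of the genes are shown because the heat shock element, the binding motif of Hsf1, is built from inverted repeats of nGAAn. RefSeq windows of 250 bases before to 50 bases after the annotated start, on GRCm38.p6, were found for 7 of the 10 genes (Hspa4, Hsph1, Dnaja1, Dnajb1, Hspb1, Hspd1 and Hspe1). They were searched for the core in its 2 phases, GAANNTTC and TTCNNGAA, each of which reads the same on both strands. In the 250 bases before the start, GAANNTTC stood in 6.69% of 32851 windows, TTCNNGAA in 7.17% and either in 12.8%. The 7 genes have 12 windows, of which 6 held a match: 2 of Hsph1, which overlap, 1 of 3 of Dnaja1, 1 of Hspb1, 1 of Hspe1, and 1 of 2 of Hspd1, whose matches are the same bases as those of Hspe1. Matches are in capitals, the sequences run 5' to 3', and the bases shown are 30 around the matches where an annotated exon overlaps, or the 150 before the start where none does. Hspe1 is shown at chr1:55088053-55088082 (+ strand), a stretch that lies 95 to 66 bases before its start and inside an annotated exon of Hspd1, which is transcribed the other way: a window of Hspd1 and that of Hspe1 share 285 of 300 bases. Hsph1 is shown at chr5:149636351-149636380 (- strand), Dnaja1 at chr4:40722333-40722362 (+), Hspb1 at chr5:135887769-135887918 (+) and Dnajb1, which had no match in either of its windows, at chr8:83608025-83608174 (+). The Hsph1 and Dnaja1 stretches overlap annotated exons of their own genes, and that of Dnaja1 also an exon of the noncoding RNA gene Gm6297. Both matches lie before the RefSeq start used here but inside the gene coordinates given below.
Hspe1: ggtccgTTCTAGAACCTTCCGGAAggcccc
Hsph1: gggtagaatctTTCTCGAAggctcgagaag
Dnaja1: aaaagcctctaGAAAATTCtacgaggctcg
Hspb1: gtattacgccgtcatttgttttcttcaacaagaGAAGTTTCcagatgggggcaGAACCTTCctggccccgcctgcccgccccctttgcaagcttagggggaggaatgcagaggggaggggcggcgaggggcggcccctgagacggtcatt
Dnajb1: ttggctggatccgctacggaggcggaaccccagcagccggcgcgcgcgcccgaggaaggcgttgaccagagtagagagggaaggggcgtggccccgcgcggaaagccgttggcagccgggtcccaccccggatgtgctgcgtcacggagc
The Hspe1 stretch carries 3 overlapping matches in a row, Hspb1 carries 2 separate ones, and Hsph1 and Dnaja1 carry 1 each. Hspa4 had none. A match is a run of letters and not a measured binding site, and the lack of one says only that these letters are not in the window.

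Levels of the 10 genes spanned a wide range when set against transcript length. Per kilobase of the transcript length given in the table, the mean level in low-RNA wells was highest for Hsp90ab1 (20.1), followed by Hsp90aa1 (13.4), Hspe1 (10.97), Hspa8 (3.04), Hspd1 (2.31), Hspb1 (1.47), Dnaja1 (0.552), Hspa4 (0.390), Hsph1 (0.126) and Dnajb1 (0.0284). In RNA-rich wells the order was Hsp90ab1 (20.7), Hspe1 (16.9), Hsp90aa1 (13.3), Hspa8 (4.23), Hspd1 (3.12), Hspb1 (2.78), Dnaja1 (0.744), Hspa4 (0.459), Hsph1 (0.185) and Dnajb1 (0.132). Hspe1 and Hsp90aa1 thus stood in opposite order in the 2 ranges, and in both ranges the gap between them was smaller than the standard deviation (SD) over wells. The gaps between Hspa8 and Hspd1, between Hspd1 and Hspb1, and between Hsph1 and Dnajb1 were also within the SD in both ranges.

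The pair of cytosolic Hsp90 genes had nearly the same levels in both ranges. Hsp90ab1 (chr17:45567775-45573271 on GRCm38, - strand), the constitutive Hsp90, had a level of 34.3 to 118 with a median of 50.2 in low-RNA wells, and of 33.3 to 116 with a median of 53.6 in RNA-rich wells. Hsp90aa1 (chr12:110690605-110702728, - strand), the stress-inducible Hsp90, had a level of 26.6 to 118 with a median of 37.03 in low-RNA wells, and of 19.6 to 109 with a median of 37.7 in RNA-rich wells. Every well held molecules of both genes, and the ranges overlapped over almost their whole extent. The mean level of Hsp90ab1 was 52.5 ± 12.8 in low-RNA wells (SD, n = 45 wells) and 53.9 ± 12.1 in RNA-rich wells (SD, n = 51 wells), a ratio of 0.97. The mean level of Hsp90aa1 was 39.5 ± 13.8 in low-RNA wells and 39.2 ± 13.2 in RNA-rich wells, a ratio of 1.01, which became 0.96 without low-RNA well D04.

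Those ratios have to be read against the genes at large, whose levels were mostly lower in low-RNA wells. Over the 2706 genes with a mean level of at least 0.5, the median ratio of low-RNA to RNA-rich mean levels was 0.735 (-0.44 on the log2 scale), 76.2% had a ratio below 1, 37.9% (1026 genes) were at least 1.5-fold lower and 10.0% (271) at least 1.5-fold higher. The ratio of Hsp90aa1 was 1.37 times that median and the ratio of Hsp90ab1 1.32 times, at percentiles 76.7 and 74.98 of all genes. When mitochondrially encoded genes and the ribosomal RNA gene Rn45s were left out of the denominator, the median ratio of all genes was 0.980, with 221 genes at least 1.5-fold lower and 496 higher, and the ratios were 1.35 for Hsp90aa1 and 1.30 for Hsp90ab1. Per spike-in molecule, the median ratio was 0.240, with 2590 genes lower and 6 higher, and the ratios were 0.309 and 0.314. The direction of the Hsp90 ratios therefore depended on the denominator, while their position above the median gene did not, at 1.38 and 1.33 times the median without mitochondrial genes and Rn45s, and 1.28 and 1.31 times it per spike-in molecule. The higher mitochondrial share of the low-RNA wells moves with these ratios, and its part in them was not tested.

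**Figure D1:**
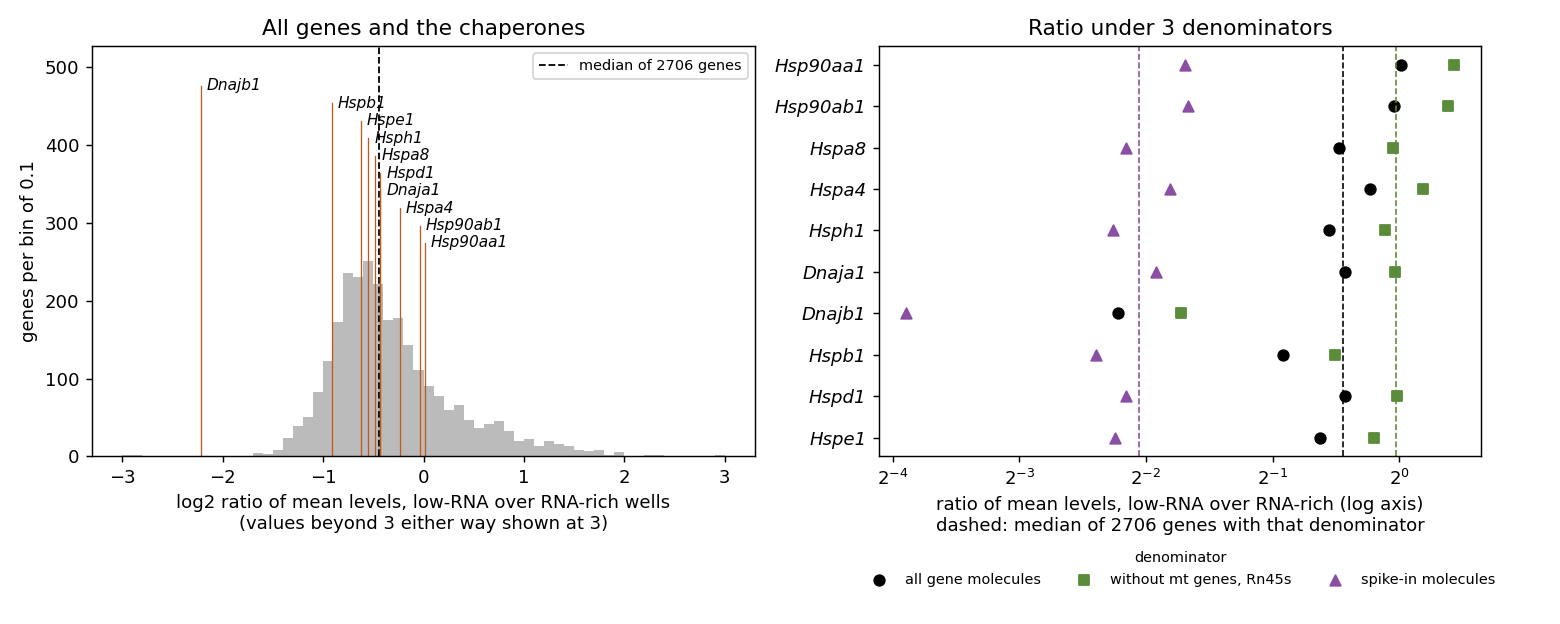
Left, the log2 ratio of mean levels in low-RNA over RNA-rich wells for 2706 genes (grey, genes per bin) with the 10 chaperone genes marked and the median of all genes dashed. Right, the ratio of each chaperone gene (log axis) with 3 denominators, each beside the dashed median of all genes for that denominator. Hsp90aa1 and Hsp90ab1 lie to the right of the median with each denominator, and Dnajb1 lies farthest to the left.

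A few wells set the extremes of the Hsp90 genes. Low-RNA well D04, with 9879 gene molecules, held 117 molecules of each gene, a level of 118 for both, against second-highest levels of 54.8 for Hsp90aa1 and 70.6 for Hsp90ab1 among low-RNA wells. Its mitochondrial share was 29.02%, close to the low-RNA median. RNA-rich well G12 had 1625 molecules of Hsp90aa1 (level 109) and 651 of Hsp90ab1 (level 43.9), and RNA-rich well E02 had the reverse, with 141 of Hsp90aa1 (level 25.9) and 629 of Hsp90ab1 (level 116). Both of these RNA-rich wells carried markers of other cells: the summed feeder level was 76.4 in G12 and 141 in E02, against a median of 8.84 in RNA-rich wells, and G12 had the lowest summed ES cell level of the RNA-rich wells (19.3). The summed trophectoderm and simple epithelium level was 30.1 in G12 and 3.86 in E02, against a median of 3.66 in RNA-rich wells. High feeder levels did not always go with high Hsp90 levels. RNA-rich well D02, with the highest summed feeder level (189), had the lowest RNA-rich Hsp90ab1 level (33.3). Its Hsp90aa1 level was 20.6. The number of Hsp90aa1 molecules per Hsp90ab1 molecule had a median of 0.725 in low-RNA wells (0.463 to 1.13) and 0.712 in RNA-rich wells (0.224 in E02 to 2.496 in G12, with 1.13 as the second highest). This within-well ratio does not depend on the denominator. It was chosen after the values were seen, as were the wells named here.

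**Figure D2:**
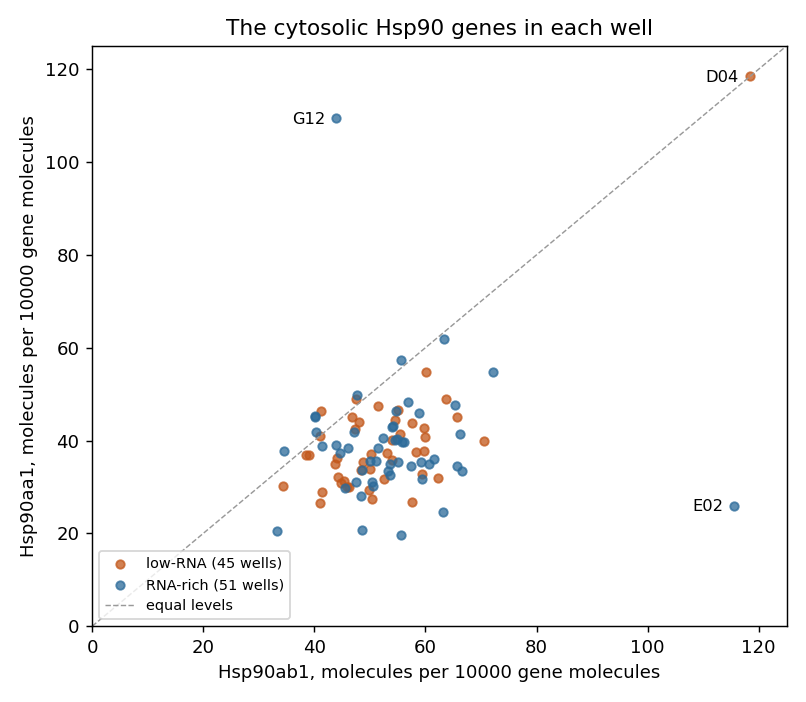
Level of Hsp90aa1 (vertical) against level of Hsp90ab1 (horizontal), both in molecules per 10000 gene molecules, for 45 low-RNA wells and 51 RNA-rich wells; the dashed line marks equal levels. Wells D04, G12 and E02 stand apart from the cloud that both ranges share.

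The Hsp70 and Hsp110 genes had lower mean levels in low-RNA wells, with ratios of 0.929 to 1.16 times the median of all genes. For Hspa4 the direction turned when mitochondrial genes and Rn45s were left out of the denominator, at a ratio of 1.14, while Hspa8 (0.96) and Hsph1 (0.92) stayed just under 1. Hspa8 (chr9:40800984-40810087, + strand), the constitutive cytosolic Hsp70, had a level of 2.29 to 11.6 with a median of 6.80 in low-RNA wells, and of 4.01 to 18.8 with a median of 9.28 in RNA-rich wells. Of the low-RNA wells, 41 of 45 lay under the RNA-rich median. The mean was 6.69 ± 2.12 in low-RNA wells and 9.33 ± 2.70 in RNA-rich wells, a ratio of 0.72 that is 0.976 times the median of all genes. Hspa4 (chr11:53259814-53300457, - strand), an Hsp110 protein that exchanges nucleotide on Hsp70, had a level of 0 to 4.82 with a median of 1.47 in low-RNA wells and of 0.602 to 4.75 with a median of 2.08 in RNA-rich wells, and the ratio of its means, 1.85 ± 1.13 and 2.18 ± 1.03, was 0.85. Hsph1 (chr5:149614287-149636376, - strand), the stress-inducible Hsp110, had a level of 0 to 1.76 with a median of 0.465 in low-RNA wells and of 0 to 2.43 with a median of 0.549 in RNA-rich wells, with means of 0.450 ± 0.461 and 0.660 ± 0.499 and a ratio of 0.68. At these counts (a median of 1 Hsph1 molecule per low-RNA well and 7 per RNA-rich well) a difference between single wells is not readable. Summed over wells, Hsph1 had 0.495 molecules per 10000 in low-RNA wells (95% exact Poisson interval 0.367 to 0.652) and 0.661 in RNA-rich wells (0.597 to 0.731), intervals that overlap and cover counting error only.

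The J protein genes differed from each other. Dnaja1 (chr4:40722150-40737149, + strand), a type I J protein, had a level of 0.734 to 9.80 with a median of 3.04 in low-RNA wells, and of 2.02 to 8.46 with a median of 4.31 in RNA-rich wells. Its means, 3.25 ± 1.84 in low-RNA wells and 4.38 ± 1.40 in RNA-rich wells, gave a ratio of 0.74, which is 1.01 times the median of all genes. Dnajb1 (chr8:83608193-83612653, + strand), the Hsf1-inducible Hsp40 that partners Hsp70, was the rarest of the set, with at most 2 molecules in a low-RNA well and at most 17 in an RNA-rich well. It was seen in 6 of 45 low-RNA wells and in 44 of 51 RNA-rich wells. The low-RNA wells held 7 molecules of it in all, which is 0.0693 per 10000 gene molecules (95% exact Poisson interval 0.0278 to 0.143), and the RNA-rich wells held 172, which is 0.295 (0.252 to 0.342). These intervals do not overlap, which was also so for Hsp90aa1, Hspa8, Dnaja1, Hspb1, Hspd1 and Hspe1. They cover counting error only, and the share of all genes without overlap was not computed. The mean level of Dnajb1 was 0.0671 ± 0.179 in low-RNA wells and 0.312 ± 0.275 in RNA-rich wells, a ratio of 0.21 and 0.293 times the median of all genes, and the ratio was 0.30 without mitochondrial genes and Rn45s in the denominator and 0.067 per spike-in molecule. With wells thinned to 10930 gene molecules (2 low-RNA wells were too shallow for this), it was seen in 2 of 43 low-RNA wells and 21 of 51 RNA-rich wells. The thinned means, 0.0638 in low-RNA wells and 0.466 in RNA-rich wells, lie under the 0.915 that 1 molecule is worth, so no fold was read from them. The unthinned low-RNA mean was also under 1 molecule, at 0.151 per well after scaling. The low-RNA side of the ratio of 0.21 therefore rests on the 7 molecules given above. No well type that should lack the gene is labelled, so a background share could not be set beside the shares of wells with a molecule.

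Hspb1 (chr5:135887919-135889563, + strand), the small heat shock protein Hsp27 that holds unfolding proteins without using ATP, was also lower in low-RNA wells. Its level was 0 to 3.06 with a median of 1.55 in low-RNA wells, and 0.253 to 12.2 with a median of 2.41 in RNA-rich wells. The upper end of the RNA-rich wells lies far above that of the low-RNA wells, while 37 of 45 low-RNA wells lay under the RNA-rich median. The mean was 1.48 ± 0.853 in low-RNA wells and 2.78 ± 2.05 in RNA-rich wells, a ratio of 0.53, or 0.722 times the median of all genes. Without the 11 RNA-rich wells in which Krt8 and Krt18 reached 15 per 10000 or feeder markers reached 100, the ratio was 0.63.

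Of the mitochondrial pair, Hspd1 followed the median gene and Hspe1 lay a little under it. Hspd1 (chr1:55077835-55088243, - strand), which encodes the Hsp60 chaperonin, had a level of 1.74 to 10.0 with a median of 5.30 in low-RNA wells, and of 2.94 to 11.2 with a median of 7.70 in RNA-rich wells. Its means were 5.63 ± 1.97 and 7.59 ± 1.77, a ratio of 0.74. Hspe1 (chr1:55088132-55091307, + strand), which encodes the Hsp10 lid of the same chaperonin, had a level of 4.05 to 18.4 with a median of 9.15 in low-RNA wells, and of 7.04 to 22.4 with a median of 14.7 in RNA-rich wells. In low-RNA wells, 41 of 45 lay under the RNA-rich median. Its means were 9.52 ± 2.91 and 14.7 ± 4.05, a ratio of 0.65, or 0.884 times the median of all genes. The number of Hspe1 molecules per Hspd1 molecule had a median of 1.67 in low-RNA wells (0.444 to 5.25) and 1.99 in RNA-rich wells (0.776 to 3.60).

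**Figure D3:**
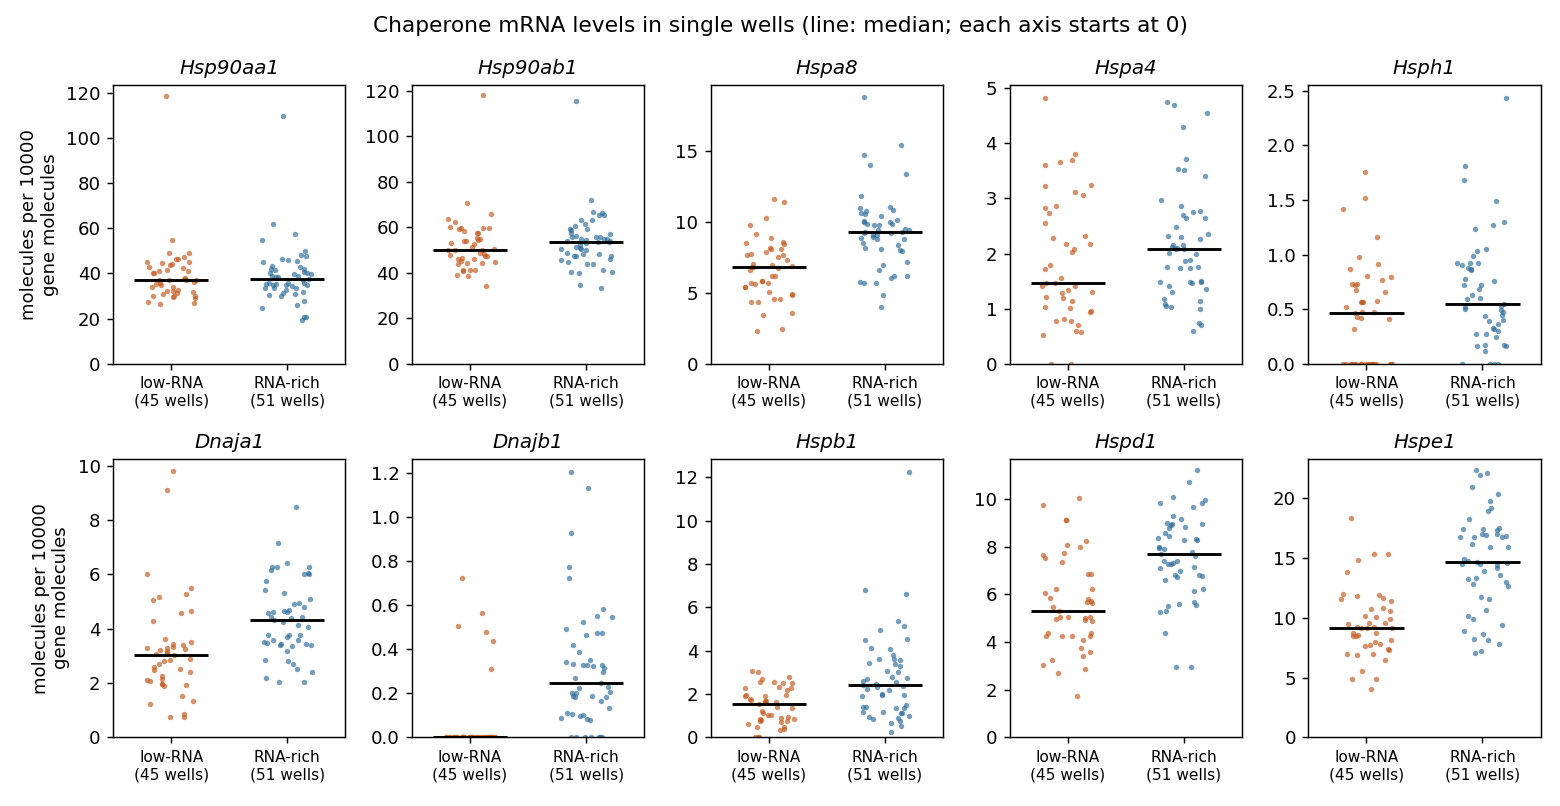
Level of each gene, in molecules per 10000 gene molecules, in every low-RNA well (left of each panel, 45 wells) and every RNA-rich well (right, 51 wells), with the median as a line; each vertical axis has its own scale. The Hsp90 medians lie side by side, and 39 of 45 low-RNA wells have no molecule of Dnajb1.

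Counted over the set, 3 of the 10 genes (Dnajb1, Hspb1 and Hspe1) were at least 1.5-fold lower in low-RNA wells and 0 were at least 1.5-fold higher. Dnajb1 lay under the mean level of 0.5 that the 2706 genes had to reach, so the count to set against the 37.9% above is 2 of 9, with a median ratio of 0.741 against 0.735 for all genes. The share of lower genes in the set was no larger than among genes at large. With mitochondrial genes and Rn45s left out of the denominator, 1 of 10 genes (Dnajb1) was at least 1.5-fold lower, and per spike-in molecule all 10 were.

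Spread between the RNA-rich wells was set against that of the spike-ins, whose squared coefficient of variation (CV) followed 3.23/mean + 0.00874 over 65 spike-ins. A gene was taken as above technical noise where its squared CV was at least 2 times this curve, with all wells and without its highest well, at a mean of at least 1 molecule. By this rule 3 of the 10 genes, Hsp90aa1, Hspb1 and Hspe1, lay above technical noise, against 7.0% of 7768 genes. The median ratio of observed to technical squared CV was 1.88 over the 10 genes and 1.36 over the 7768. Genes with more molecules reach the rule more easily, since technical noise falls with the mean: among the 2706 genes with a mean level of at least 0.5, 419 (15.5%) passed and the median ratio was 1.59. Over all 96 wells the count was also 3, against 5.91% of 6190 genes. There Hspb1 no longer passed (2.81, and 1.90 without its highest well) and Hsp90ab1 did (2.94 and 2.14).

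Hsp90aa1 had a CV of 33.8% where spike-ins of its mean would have 12.6%, a ratio of 7.16, which became 3.28 without well G12, its highest. Hspb1 had a CV of 73.4% against 33.2%, a ratio of 4.90, which became 3.04 without well A09 (level 12.2), a well with summed levels of 38.7 for feeder markers and 53.9 for trophectoderm and simple epithelium markers. Hspe1 had a CV of 27.6% against 16.7%, a ratio of 2.73, and 2.62 without its highest well F05, so no single high well carried it. Unique reads gave few molecules of Hsp90aa1 and Hspb1, as stated above, and reads from gene copies could not be told apart from theirs.

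Without the 11 wells with keratin or feeder markers, the ratio was 2.91 for Hsp90aa1, 2.75 for Hspb1 and 2.81 for Hspe1, all above the threshold, while 4.32% of all genes passed it. With wells thinned to 51390 gene molecules, the ratios were 4.46 for Hsp90aa1, 2.19 for Hspb1 and 1.53 for Hspe1, and only Hsp90aa1 stayed above the threshold with and without its highest well, while 2.34% of all genes did. Hspb1 and Hspe1 therefore did not pass the rule at the depth of the shallowest RNA-rich well. Fewer molecules per well raise technical noise by construction, and the share of all genes that passed fell from 7.0% to 2.34%. The loss of these calls therefore does not decide whether the spread of Hspb1 and Hspe1 lies above technical noise.

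The other 7 genes did not pass the rule. Hsp90ab1 had a ratio of 3.61, which became 1.80 without well E02, and 1.10 without the wells with keratin or feeder markers. Without the wells with outlying spike-in totals (C03 and H03) it passed, with 4.47, and 2.19 without its highest well. Hspa8 had a ratio of 2.14 and 1.68 without well C06, and the ratios of Hspa4 (1.61), Dnaja1 (1.39), Hsph1 (1.31) and Hspd1 (1.19) were under 2. Dnajb1, at 3.57 molecules per well after scaling, had a ratio of 0.849, a spread no larger than that of spike-ins. Hspd1 and Hspe1, whose products form 1 complex, thus had ratios of 1.19 and 2.73, a difference that was not tested.

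In low-RNA wells, 9 of the genes averaged 1 molecule or more, and 0 of these 9 passed the same rule, against 0.594% of 2695 genes, and the median ratio was 0.486 over the 9 and 0.473 over all. A ratio under 1 means that a gene varied less than the spike-in curve of these wells. Most genes lay under that curve, so the 0 of 9 says little about these genes. Well H12, with 926 spike-in molecules, was among the wells behind the curve, and its part in it was not tested. Hsp90aa1 (2.72) and Hsp90ab1 (1.63) were the highest of the set in low-RNA wells, and without well D04 they became 0.716 and 0.668.

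**Figure D4:**
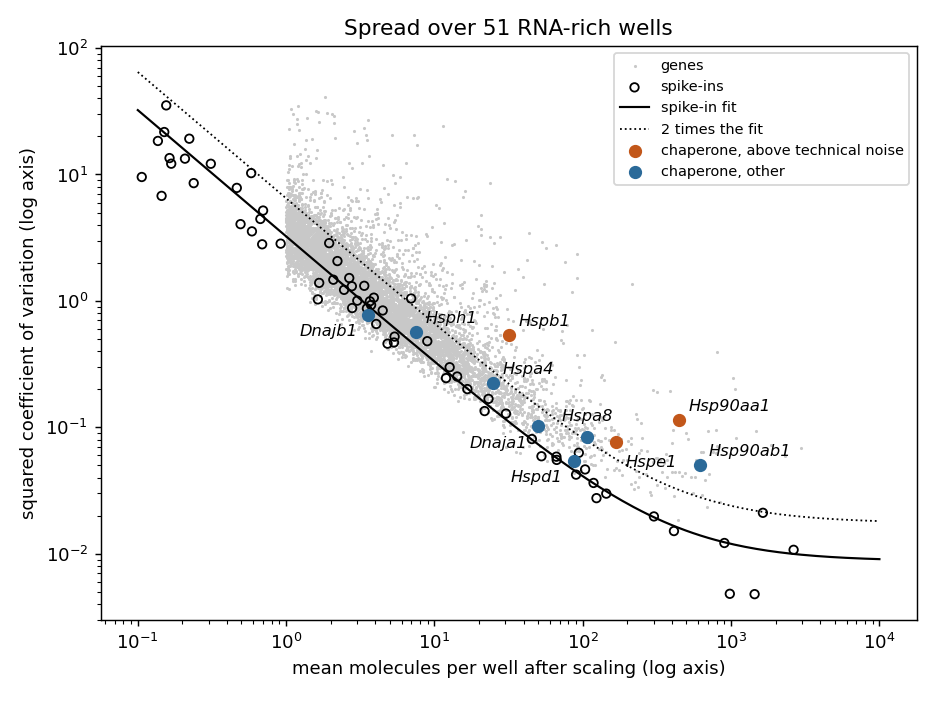
Squared coefficient of variation against mean molecules per RNA-rich well (both log axes) for genes (grey), spike-ins (open circles) and the 10 chaperone genes (filled), with the spike-in fit as a solid line and 2 times the fit dotted. Hsp90aa1, Hspb1 and Hspe1 lie above the dotted line with and without their highest well; Hsp90ab1 and Hspa8 lie above it only with all wells.

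Correlations between the 10 genes were mostly near 0 as shares of the gene molecules of a well. Over the 51 RNA-rich wells, the median Spearman rho of their 45 pairs was 0.048, against 0.016 over all pairs of the 2706 genes, of which 95% lay between -0.295 and 0.327. In low-RNA wells it was 0.033, against 0.011 over all pairs, of which 95% lay between -0.292 and 0.315. Over all 96 wells it was 0.163, against 0.054 over all pairs, and per spike-in molecule in RNA-rich wells 0.363, against 0.146. Of the 45 pairs, 4 lay above and 0 below the interval in low-RNA wells, and 5 above and 2 below in RNA-rich wells, where the interval itself leaves out 5% of all pairs. These are descriptions over wells of 1 chip that share the well total as denominator, and no test was made.

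The highest pairs in RNA-rich wells were Dnaja1 with Hspe1 (0.43), Hsp90aa1 with Hspa8 (0.38), Dnaja1 with Hspd1 (0.37), Hsph1 with Hspd1 (0.33) and Dnajb1 with Hspb1 (0.33), which lay above that interval. In low-RNA wells the same pairs had -0.15, 0.15, 0.07, -0.17 and -0.05. Hsp90ab1 with Dnajb1 (-0.38) and Hsp90ab1 with Hspb1 (-0.33) lay below the interval in RNA-rich wells, and the second of these had the highest rho of all pairs in low-RNA wells, at 0.46. Hsp90aa1 with Hsp90ab1 had 0.41 in low-RNA wells and 0.02 in RNA-rich wells. Hspd1 with Hspe1, the pair with neighbouring starts, had 0.01 in low-RNA wells and 0.17 in RNA-rich wells. No pair lay outside its range's interval in the same direction in both ranges.

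**Figure D5:**
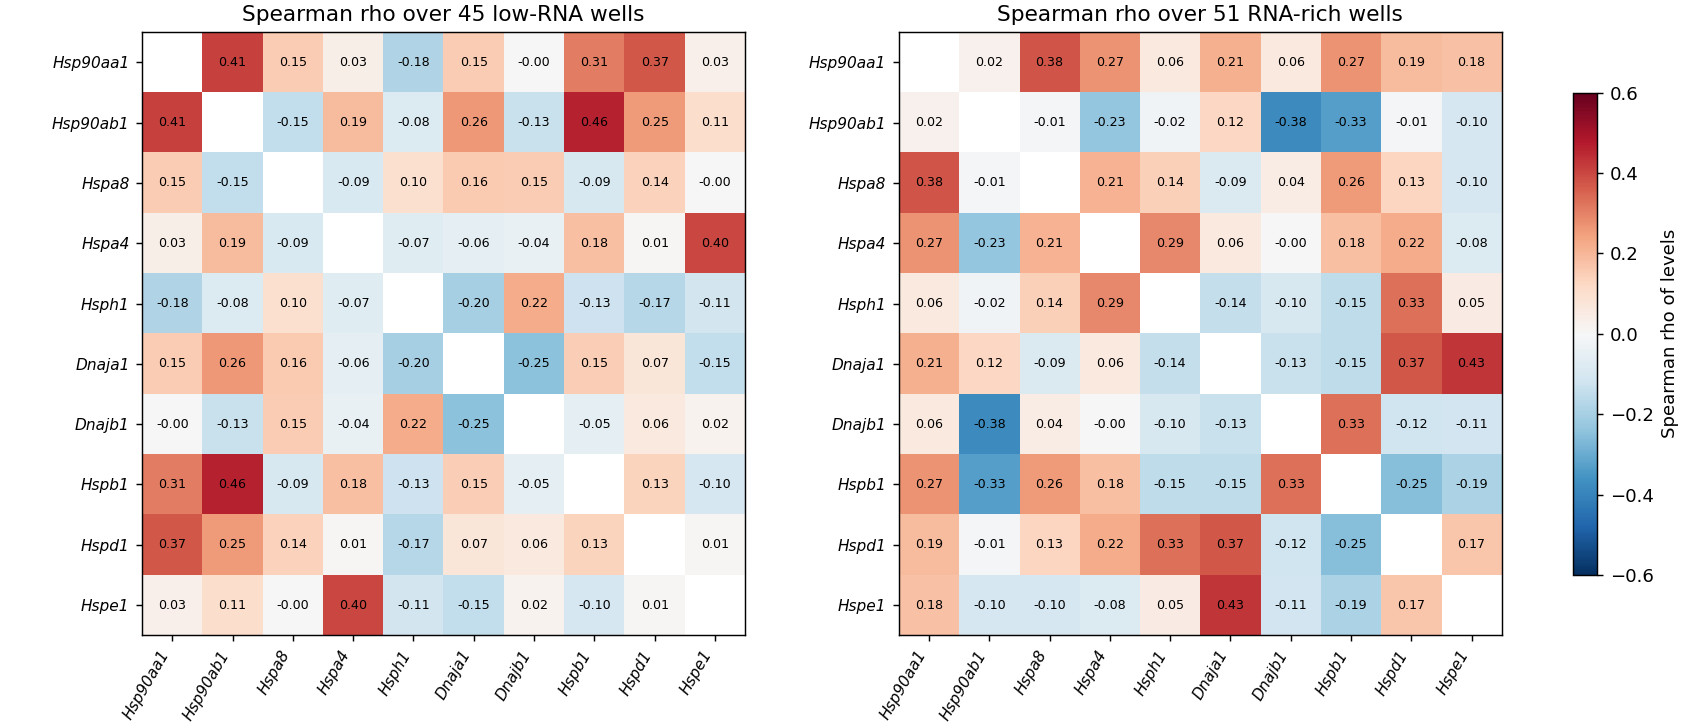
Spearman rho between the levels of each pair of the 10 genes over 45 low-RNA wells (left) and 51 RNA-rich wells (right). Most cells of both panels lie near 0, with Dnaja1 and Hspe1 the highest on the right and Hsp90ab1 and Hspb1 the highest on the left.

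Across the other genes with a mean level of at least 0.5, the gene most like each member over the 51 RNA-rich wells was named by rho, for the 8 members with a mean level of at least 2. The highest values belonged to Hspb1, which had a rho of 0.63 with Gpx1 (glutathione peroxidase) and of 0.62 with Spint2 (a membrane protease inhibitor), or 0.53 and 0.64 after thinning. Dnaja1 had 0.59 with Dynll1, a dynein light chain (0.50 after thinning). Hspe1 had 0.58 with Mrpl12, a mitochondrial ribosomal protein (0.40), 0.57 with Oaz1-ps, which had no molecule from unique reads (0.47), and 0.57 with the nucleolar protein gene Npm1 (0.58). Hspa4 had 0.57 with Ewsr1 (0.41), Hsp90ab1 had 0.54 with Noc4l (0.60), Hsp90aa1 had 0.52 with Ppie (0.43), Hspd1 had 0.52 with Hdgf (0.39) and Hspa8 had 0.51 with Uqcrb (0.53), with the thinned value in parentheses each time. These are the highest of 2705 values each, and nothing was read from them.

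The summed level of the 10 genes had a median of 118 in low-RNA wells (90.6 to 269) and 135 in RNA-rich wells (89.3 to 199). In RNA-rich wells it moved most with the summed level of 13 Hsp90 co-chaperone genes, at a rho of 0.47, which for the single genes was 0.43 for Hsp90aa1 and 0.21 for Hsp90ab1. Its rho was 0.13 with the number of gene molecules and -0.16 with the mitochondrial share. In low-RNA wells its rho was -0.52 with the mitochondrial share, 0.73 with the ribosomal protein genes and 0.59 with 10 housekeeping genes, and 0.10 with the co-chaperones. The mitochondrial molecules are part of the denominator, and how far that sets the values in low-RNA wells was not tested.

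Genes that work with these chaperones were described from lists, as counts among the members with a mean level of at least 0.5, again beside the 37.9% lower, 10.0% higher and median of 0.735 over all genes. Of 9 Hsp90 co-chaperones measured, 3 were at least 1.5-fold lower in low-RNA wells and 0 higher, with a median ratio of 0.686. Stip1, which links Hsp70 to Hsp90, had a mean level of 1.45 in low-RNA wells and 2.99 in RNA-rich wells (ratio 0.48), and Fkbp4, an Hsp90-bound prolyl isomerase, 2.08 and 4.02 (0.52). Cacybp had 2.61 and 4.11 (0.64), and was the 1 gene of the list above technical noise, while Ptges3, the p23 co-chaperone, had 3.08 and 3.30 (0.93). The co-chaperones thus included ratios well under those of the Hsp90 genes themselves, but the difference was not tested.

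Of 4 genes measured among Hsp70 relatives and partners, 2 were lower and 0 higher, with a median of 0.732: Hspa14 had a mean level of 0.726 in low-RNA wells and 1.66 in RNA-rich wells (0.44), and Stub1, the CHIP ubiquitin ligase, 0.540 and 0.882 (0.61). Of 8 J proteins measured, 1 was lower and 1 higher, with a median of 0.820. Dnajc19, a J protein of the mitochondrial inner membrane, had 1.85 in low-RNA wells and 3.40 in RNA-rich wells (0.54), and Dnajc21, known for ribosome maturation, had 1.08 and 0.678 (1.596). Of 13 subunits of the cytosolic chaperonin TRiC and of prefoldin, which fold actin and tubulin, 5 were lower and 0 higher, with a median of 0.715 and all 13 below 1. The lowest of these were Cct5, with 3.64 in low-RNA wells and 7.56 in RNA-rich wells (0.48), and Cct8, with 4.16 and 7.77 (0.54).

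Of 5 other mitochondrial chaperones and proteases measured, 3 were lower and 0 higher, with a median of 0.657. Trap1, the mitochondrial Hsp90, had a mean level of 0.715 in low-RNA wells and 1.21 in RNA-rich wells (0.59), the protease gene Lonp1 0.445 and 0.831 (0.54), and Hspa9, the mitochondrial Hsp70, 3.03 and 3.40 (0.89). Of 7 chaperones of the endoplasmic reticulum (ER), 1 was lower and 1 higher, with a median of 0.926. Hsp90b1, the ER Hsp90, had 11.7 in low-RNA wells and 6.86 in RNA-rich wells (1.70), and Canx, a lectin chaperone, 4.75 and 3.64 (1.31), while Pdia3, a disulfide isomerase, had 0.954 and 1.74 (0.55). The Hsp90 genes of the 3 compartments thus had ratios of 1.70 (ER), 1.01 and 0.97 (cytosol) and 0.59 (mitochondria), set side by side after their values were seen.

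Genes of a further list, of heat shock factors, Hsbp1 and stress-inducible genes, were mostly rare in these wells. Of these 10 genes, 2 reached a mean level of 0.5: Hsbp1, which binds Hsf1, had 1.35 in low-RNA wells and 1.83 in RNA-rich wells (0.74), and Chordc1 0.375 and 0.772 (0.49). Hspa1a, the classical inducible Hsp70, was seen in 4 of 45 low-RNA wells and 15 of 51 RNA-rich wells, with 44 molecules in all, and Hspa1b in 1 and 6 wells, with 13 molecules. Hsf1 itself was seen in 8 low-RNA wells and 19 RNA-rich wells. These shares are not thinned and the RNA-rich wells are deeper, so no change was read from them. Well E02, the RNA-rich well with the highest Hsp90ab1 level, held the most molecules of Hspa1a (7), Dnajb4 (17 of 47) and Bag3 (31 of 135), a nucleotide exchange factor of Hsp70. The other genes of the list peaked in other wells, such as Hspb8 in H07 (33), Cryab in G10 (31) and Hspa1b in A03 (3). In RNA-rich wells, 7.59 was the second highest summed level of the 10 listed genes, against 19.8 in E02. The same well had 0 molecules of Hsph1 and Dnajb1, the lowest RNA-rich levels of Dnaja1 (2.02) and Hspd1 (2.94), and the feeder markers given above, whose part in these values was not tested. With 54410 gene molecules, E02 lay under the RNA-rich median of 98750. RNA-rich wells held a median of only 7 molecules of Hsph1 and 3 of Dnajb1, so these counts of 0 say little. Well A08 had nearly the same Dnaja1 level (2.04).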

How the data were processed

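The values are molecule counts per feature and well, as deposited by the authors in a table of 25914 features (24264 genes, 96 spike-ins and 1554 repeat types); reads that matched in several places are included at their most 5' exonic match, per the file headers. Bowtie and the builds mm10 and GRCm38 appear, without versions, in the submitters' processing notes. The transcript lengths are those the authors deposited in the same table. Gene coordinates came from GENCODE M21 (GRCm38).

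Levels, ratios of means, spread and correlations were computed with Python 3.11.15, numpy 2.4.6, pandas 2.3.3, scipy 1.17.1 and statsmodels 0.14.6. Ratios were called at 1.5-fold among genes with a mean level of at least 0.5, and the spike-in curve was a gamma model over spike-ins averaging 0.1 molecules or more. The procedures were tested on simulated data. Thinning drew molecules without replacement with a fixed seed. No well was removed, no doublet caller was run, and empty or damaged chambers were not identified, since chamber images are not analysed here.

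The 10 genes, the gene lists, the marker lists and the tests were chosen with earlier results of these data known. All 10 genes are named, and of each list the 2 genes with the highest mean level and the 2 with the largest ratio either way were eligible. Molecule counts are not reads, but intervals cover counting error only.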

Additional observations from a re-analysis of the deposited data

How the results depend on the processing

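The count of 3 genes at least 1.5-fold lower in low-RNA wells became 10 with spike-in molecules as denominator (95.7% of all genes) and 1 without mitochondrial genes and Rn45s (8.17%). It became 5 with thinned wells (40.3%). Of these, Hsph1 and Dnajb1 had thinned means under 1 molecule in both ranges and no fold was read from them, leaving 3 (Dnaja1, Hspb1 and Hspe1). At a 2-fold threshold the count was 1 (8.28%), and it was 3 or 4 under the other alternatives. The count of 3 genes above technical noise became 7 with the spike-in denominator (12.1% of all genes), 1 with thinned wells (2.34%) and 5 at a threshold of 1.5 (19.2%). The median rho of 45 pairs, 0.048, became 0.363 with the spike-in denominator, where all gene pairs had 0.146. No called ratio changed direction under these alternatives. The uncalled ratios of Hsp90aa1, Hsp90ab1 and Hspa4 did with the denominator. That of Hsp90aa1, 1.01, also fell under 1 with thinned wells (0.942) and without well D04 (0.962). It was under 1 as a ratio of medians (0.982) and of summed molecules (0.942) as well. Chosen after the data were seen, leaving out well D04 left the count of lower genes at 3, and leaving out G12 or E02 left the count above technical noise at 3. Why these values moved was not tested, except that fewer molecules per well raise technical noise in thinned wells by construction.

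No paired analysis was possible because replicate numbers are shared only between the 2 library forms, which the table combines into 1 column per well. Low-RNA wells held a median of 1 molecule of Hsph1, 0 of Dnajb1 and 3 of Hspb1, which limits the precision of their single-well values. With 1 culture on 1 chip, RNA content, mitochondrial share and capture quality of the wells cannot be told apart.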
